A study of Homo sapiens
Mus musculus and Mus musculus and Homo sapiens with 16 samples.

Results

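The chemokine transcripts counted in REC-1 cells were described in monoculture and in coculture with stroma. The set holds 9 genes, CXCL9, CXCL10, CXCL11, CCL3, CCL4, CCL3L3, CCL5, CCL17 and CCL22, chosen by symbol among the 58051 genes of the human count table. It places 3 CXCL genes of the interferon-inducible kind beside 6 CCL genes. REC-1 is a human mantle cell lymphoma (MCL) cell line, and MS-5 is a mouse stromal cell line derived from bone marrow, so each group is 1 established line and not patient material. In the Sep group REC-1 cells were cultured alone. In coculture they were added to MS-5 cells seeded 24 h ahead, and RNA was taken after a further 24 h from the cells in suspension (Susp) and from the fraction adhered to MS-5 (Adh). All groups, with MS-5 cells alone as the stromal control, grew in the same serum-supplemented alphaMEM, with 4 libraries per group numbered 1 to 4 by the labels. Same-numbered libraries share a sample code, but the labels do not say which cultures the numbers mark. The libraries were taken as unpaired, so p-values measure the spread between these libraries. Libraries of JeKo-1, another MCL line, were not analysed here.

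Chemokines are small secreted proteins that direct the movement of leukocytes through G protein-coupled receptors. CXCL9, CXCL10 and CXCL11 are classical targets of interferon signalling and share the receptor CXCR3, which is carried by activated T cells and NK cells. CCL3, its near-copy CCL3L3 and CCL5 bind CCR1, CCL5 also binds CCR3, and B cells make CCL3 and CCL4 after B-cell receptor (BCR) stimulation. CCL17 and CCL22 bind CCR4 on helper and regulatory T cells and are made by dendritic cells and activated B cells.

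The genes lie in a few clusters of the genome (GRCh38). CXCL9 (ENSG00000138755, chr4:76001275-76007509), CXCL10 (ENSG00000169245, chr4:76021118-76023497) and CXCL11 (ENSG00000169248, chr4:76033682-76041415) lie side by side on the minus strand within 40.1 kb. CCL22 (ENSG00000102962, chr16:57358783-57366189) and CCL17 (ENSG00000102970, chr16:57404767-57416063) are neighbours on the plus strand. On chromosome 17, CCL5 (ENSG00000271503, chr17:35871491-35880793), CCL3 (ENSG00000277632, chr17:36088256-36090169) and CCL3L3 (ENSG00000276085, chr17:36194869-36196758) lie on the minus strand and CCL4 (ENSG00000275302, chr17:36103827-36105621) on the plus strand.

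The 250 bases upstream of the annotated transcript start are shown for the CXCL cluster and for CCL22, the chemokines on which the results below turn. The letters were read from GRCh38 with the starts of GENCODE release 44, and run 5′ to 3′ on the gene's own strand. The windows are chr4:76007510-76007759 (minus) for CXCL9, chr4:76023498-76023747 (minus) for CXCL10, chr4:76036071-76036320 (minus) for CXCL11 and chr16:57358533-57358782 (plus) for CCL22. Capitals mark matches, on either strand, to the core of the interferon-stimulated response element, a repeat of GAAA with 2 free bases between its copies, to the gamma-activated site TTCNNNGAA and to the kB site that NF-kB binds.
CXCL9: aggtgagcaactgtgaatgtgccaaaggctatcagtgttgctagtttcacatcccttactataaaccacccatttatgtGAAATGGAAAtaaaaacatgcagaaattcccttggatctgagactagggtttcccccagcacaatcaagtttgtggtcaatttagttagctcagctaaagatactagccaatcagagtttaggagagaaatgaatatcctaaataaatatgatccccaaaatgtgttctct
CXCL10: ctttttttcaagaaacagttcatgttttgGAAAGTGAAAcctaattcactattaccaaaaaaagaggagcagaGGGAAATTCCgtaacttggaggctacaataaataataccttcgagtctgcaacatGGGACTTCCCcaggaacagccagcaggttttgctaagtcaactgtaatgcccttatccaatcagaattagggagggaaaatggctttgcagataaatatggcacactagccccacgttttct
CXCL11: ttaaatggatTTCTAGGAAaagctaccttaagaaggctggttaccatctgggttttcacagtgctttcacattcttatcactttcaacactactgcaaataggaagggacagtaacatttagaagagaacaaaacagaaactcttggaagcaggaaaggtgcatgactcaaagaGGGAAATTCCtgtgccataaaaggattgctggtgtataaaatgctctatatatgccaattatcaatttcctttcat
CCL22: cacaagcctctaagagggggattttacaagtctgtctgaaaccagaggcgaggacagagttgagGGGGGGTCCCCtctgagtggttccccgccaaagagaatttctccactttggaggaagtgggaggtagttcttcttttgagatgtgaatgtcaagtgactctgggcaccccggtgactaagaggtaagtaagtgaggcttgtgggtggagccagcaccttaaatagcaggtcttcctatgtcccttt

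The interferon core was matched in CXCL9, 171 to 162 bases upstream of the start, and in CXCL10, 221 to 212 bases upstream. Among 20032 promoters of protein-coding genes 2.84% held such a match in a window of the same length. CXCL11 held no match to this core but 1 gamma-activated site, which 5.67% of promoters held. Sites of the kB kind were matched in CXCL10 (2), CXCL11 (1), CCL5 (2) and CCL22 (2 that overlap), against 11.3% of all promoters. The windows of CCL3, CCL4, CCL3L3 and CCL17 held none of these letters. A match describes the letters of the window, and binding was not measured.

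**Figure D1:**
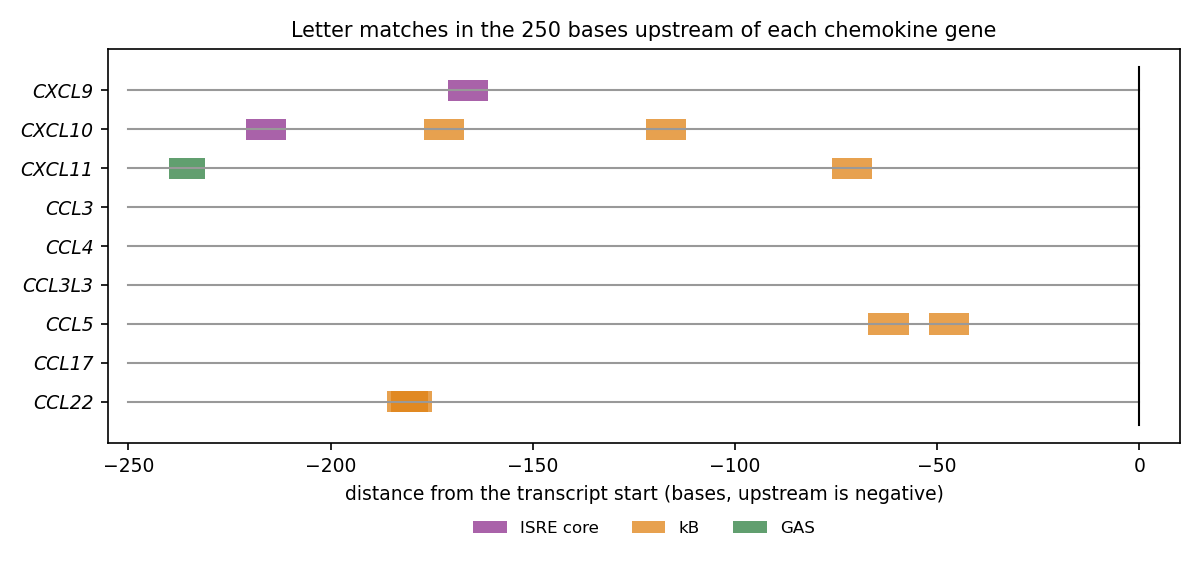
Positions of the letter matches in the 250 bases upstream of the start of each of the 9 chemokine genes; the x axis gives the distance from the start in bases, and the coloured boxes are the matches. The interferon core was found in CXCL9 and CXCL10, and no match was found in CCL3, CCL4, CCL3L3 and CCL17.

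The human counts behind the values ranged from 7758979 to 21467832 per REC-1 library, and were highest in Susp. In counts of 4 to 40, where chance gives even and odd numbers alike, 68.3% to 82.3% of values in a library were even, as when both reads of a pair are counted, so counting error is larger than the counts imply. Levels are given as CPM, the count scaled to the library's TMM-adjusted total. B cell markers summed to between 4833 and 6292 CPM, and the 8 monocyte markers to between 0.984 and 2.20 CPM, of which 3 were at 0 counts in every library. The 8 T and NK cell markers summed to 3.10 to 5.58 CPM in Sep, 4.63 to 7.35 in Susp and 5.14 to 9.11 in Adh, with medians of 4.95, 6.46 and 7.72 CPM. Most of this was CD3E, a chain of the T cell receptor complex, at 3.27 ± 0.661, 4.77 ± 0.987 and 5.30 ± 1.83 CPM (SD, n = 4 each). Its log2 difference from Sep was 0.55 in Susp and 0.71 in Adh, and neither was called (edgeR adjusted p = 0.309 and 0.157). CD3D of the same complex was at 0.211, 0.244 and 0.535 CPM (means), and CD2 had 0 counts in every library. The part of these markers in the results was not tested. Susp replicate 2 stood apart from the other Susp libraries in several genes, and the differences of the chemokines and of the called genes between Susp and Sep are given with and without it.

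A gene was called changed if it differed by 1.5-fold or more and its p in edgeR's quasi-likelihood test, adjusted by Benjamini-Hochberg over all 12861 tested genes, did not exceed 0.05. Some list genes are counted at an unadjusted p under 0.05. The share of all genes at that limit was not taken, and nothing is read from those counts. Because the chemokines were chosen with these comparisons known, their values describe the libraries, and no p-values are given for them. Of the 9 genes, 7 passed the filter on low counts. CCL3L3 did so through the Adh libraries alone, all 4 of which lay above the filter's 0.796 CPM against none of the Sep or Susp libraries. CXCL11 and CCL17 did not pass.

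CXCL9 and CXCL10 RNA was about 2-fold higher in coculture than in monoculture, in suspended and in adhered cells alike. CXCL9, also called monokine induced by interferon gamma, measured 8.98, 10.9, 9.83 and 8.93 CPM in the Sep libraries. It measured 20.4, 18.8, 20.5 and 23.5 CPM in Susp. In Adh it measured 20.9, 16.8, 20.6 and 14.9 CPM. Each coculture library was thus above every monoculture library, while Susp and Adh overlapped. The means were 9.66 ± 0.916 CPM in Sep, 20.8 ± 1.96 in Susp and 18.3 ± 2.94 in Adh (SD, n = 4 each). The fitted log2 fold change was 1.11 (SE 0.14) for Susp against Sep and 0.92 (SE 0.14) for Adh against Sep. Without Susp replicate 2 the first of these was 1.14.

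CXCL10, the interferon gamma-induced protein of the same cluster, followed the same course at a higher level. Its values were 16.5, 14.6, 11.5 and 10.4 CPM in Sep. They were 30.9, 31.3, 23.8 and 24.5 CPM in Susp. In Adh they were 26.6, 27.0, 22.6 and 31.8 CPM. No coculture library reached down to the highest Sep library, and the ranges of Susp and Adh overlapped almost wholly. The means were 13.3 ± 2.83 CPM in Sep, 27.6 ± 4.02 in Susp and 27.0 ± 3.77 in Adh (SD, n = 4 each). Its log2 fold change was 1.05 (SE 0.16) in Susp and 1.02 (SE 0.16) in Adh, both against Sep, and 0.98 in Susp without replicate 2. The ratio of CXCL9 to CXCL10 in CPM was 0.751 ± 0.149 in Sep, 0.771 ± 0.168 in Susp and 0.696 ± 0.192 in Adh (SD, n = 4 each), so the 2 transcripts kept a like proportion within the spread of the libraries.

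CXCL11, the third ligand of CXCR3, was all but missing. It had 0 counts in 10 of the 12 libraries, 2 counts in Susp replicate 3 (0.0967 CPM) and 2 in Adh replicate 1 (0.150 CPM). All values were at or under the 3 counts that a count of 0 allows, so no fold is given. The gene next to CXCL10 was therefore not detectable at this depth in either culture.

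Between the coculture fractions the CXCL transcripts did not differ beyond the spread of the libraries. The log2 difference of Adh from Susp was -0.18 for CXCL9 (95% interval -0.47 to 0.10) and -0.03 for CXCL10 (95% interval -0.36 to 0.29). Both intervals lie within 1.5-fold in either direction.

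**Figure D2:**
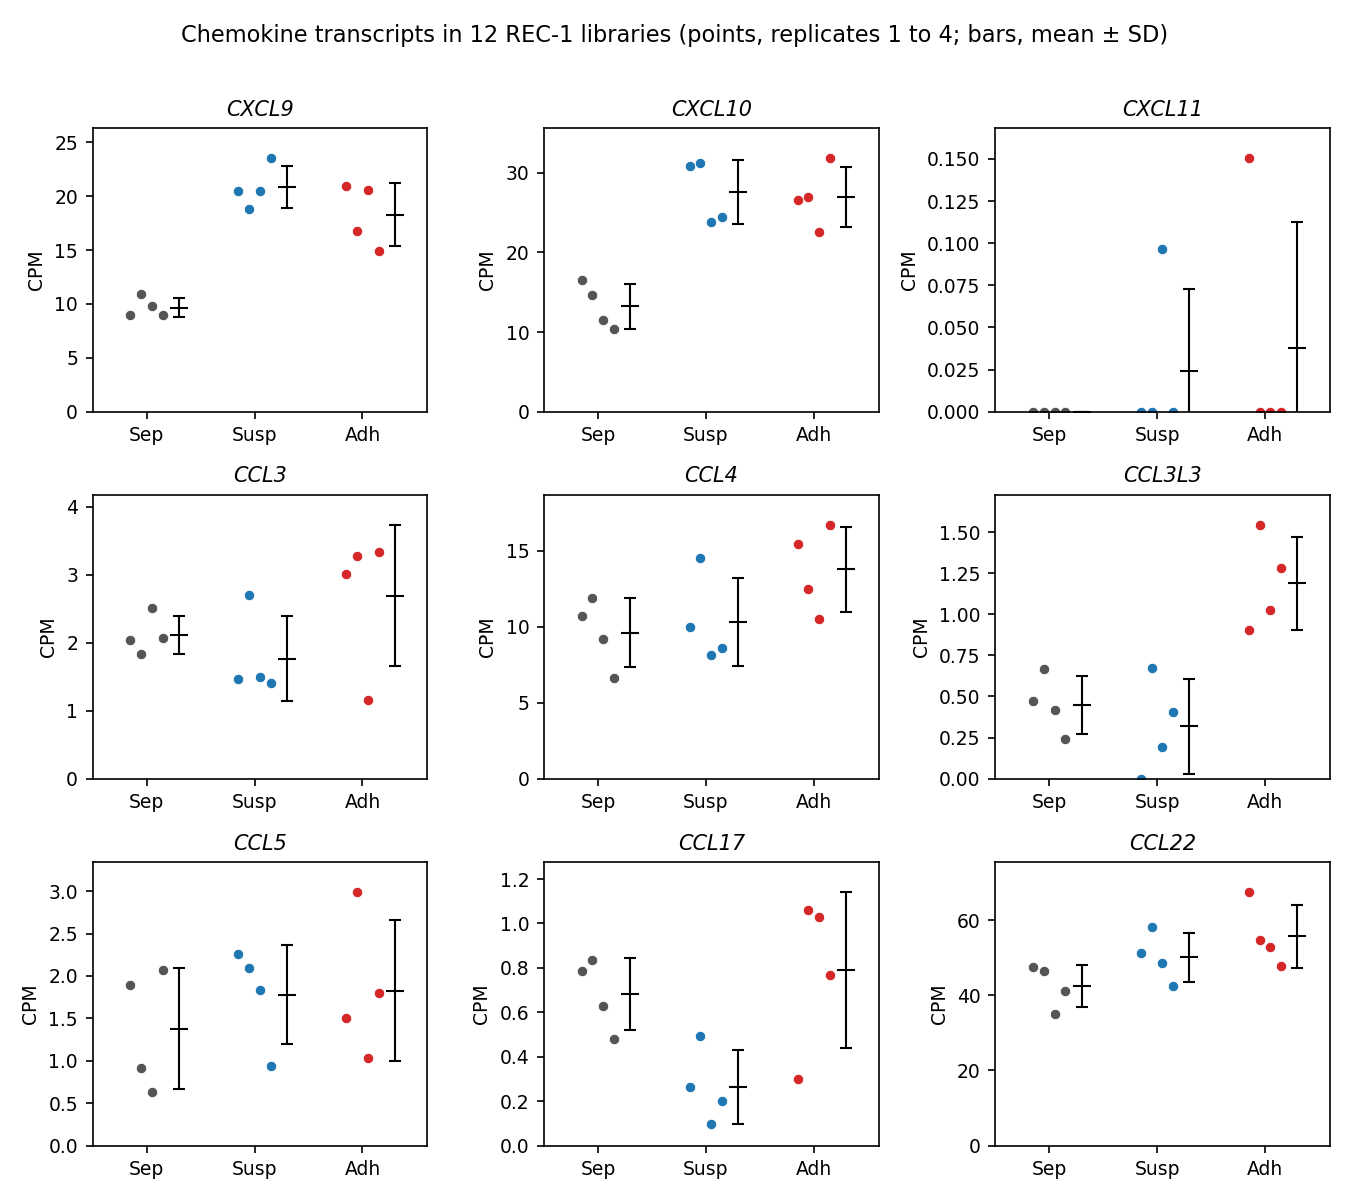
CPM of the 9 chemokine transcripts in the 4 Sep, 4 Susp and 4 Adh libraries of REC-1, each panel on its own linear axis; points are libraries in the order of replicates 1 to 4, and bars are mean ± SD. CXCL9 and CXCL10 lie higher in all 8 coculture libraries than in the 4 Sep libraries, and CCL3L3 lies higher in Adh than in the other groups.

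CCL22 was the most abundant CCL transcript and differed little between the groups. It measured 47.4, 46.4, 34.9 and 41.2 CPM in Sep. In Susp it measured 51.2, 58.2, 48.5 and 42.4 CPM, and in Adh 67.4, 54.7, 52.9 and 47.7 CPM. The lowest Adh library lay just above the highest Sep library, while Susp overlapped with both. The log2 difference was 0.39 (95% interval 0.12 to 0.67) for Adh against Sep and 0.24 (-0.04 to 0.51) for Susp against Sep, or 0.15 without Susp replicate 2. Neither was called, and the fitted difference in Adh, 1.31-fold, was under the 1.5-fold limit.

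CCL17, the other ligand of CCR4, was near the limit of counting although its gene lies next to CCL22. It had 6 to 10 counts per library in Sep, 2 to 8 in Susp and 4 to 11 in Adh, which gave 0.683 ± 0.163, 0.264 ± 0.167 and 0.789 ± 0.351 CPM (SD, n = 4 each). The groups overlapped, and the gene was not tested.

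CCL4, which B cells release on BCR stimulation, measured 10.7, 11.9, 9.21 and 6.62 CPM in Sep. In Susp it measured 10.0, 14.5, 8.12 and 8.60 CPM, the highest in replicate 2. In Adh it measured 15.5, 12.5, 10.5 and 16.7 CPM. All 3 groups overlapped, though the Adh mean of 13.8 ± 2.79 CPM was above the 9.60 ± 2.27 of Sep and the 10.3 ± 2.91 of Susp (SD, n = 4 each). The log2 difference was 0.53 (95% interval 0.06 to 0.99) for Adh against Sep and 0.43 (-0.03 to 0.88) for Adh against Susp. For Susp against Sep it was 0.10, and -0.12 without Susp replicate 2, and it was also below 0 without Sep replicate 4, at -0.05, so its direction rested on single libraries. Without Susp replicate 2 the difference of Adh from Susp was 0.65.

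CCL3, which stimulated B cells also release, measured 2.05, 1.84, 2.51 and 2.07 CPM in Sep. It measured 1.46, 2.70, 1.498 and 1.41 CPM in Susp and 3.01, 3.27, 1.16 and 3.34 CPM in Adh. The groups overlapped through 1 library each, Susp replicate 2 high and Adh replicate 3 low. The log2 difference was -0.25 (95% interval -0.96 to 0.46) for Susp against Sep, 0.37 (-0.35 to 1.08) for Adh against Sep and 0.62 (-0.09 to 1.32) for Adh against Susp. Without Susp replicate 2 the first was -0.54 and the last 0.91.

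CCL3L3, a copy of CCL3 in the same cluster, had all Adh libraries above all others. It passed the filter through that group alone, so this separation is a description. Its counts were 6, 8, 4 and 3 in Sep, 0, 11, 4 and 6 in Susp and 12, 16, 8 and 10 in Adh. These gave 0.450 ± 0.177, 0.318 ± 0.290 and 1.19 ± 0.283 CPM (SD, n = 4 each). The fitted log2 difference was 1.38 (SE 0.59) for Adh against Sep and 1.87 (SE 0.58) for Adh against Susp, and neither was called. Without Susp replicate 2 the latter was 2.54. For Susp against Sep it was -0.50, and -1.16 without that library. With the counts of CCL3 and CCL3L3 added, the log2 difference was 0.61 for Adh against Sep and 0.90 for Adh against Susp, again not called.

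The counts of these copies are uncertain. In GENCODE release 44, 74.6% of the exon bases of CCL3 and 23.3% of those of CCL3L3 overlap antisense genes, both with 0 counts in all 12 libraries, and the library kit named in the labels does not mark strand, so reads from either strand cannot be told apart. CCL3 and CCL3L3 shared none of their stretches of 100 bases, whereas 8.02% of those of CCL4 were also in its copy CCL4L2. CCL4L2 itself, at 3.19 CPM in Sep, 3.14 in Susp and 4.83 in Adh (means), had log2 differences of 0.59 (SE 0.28) for Adh against Sep and 0.61 (SE 0.27) for Adh against Susp. Neither was called (edgeR adjusted p = 0.244 and 0.252).

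CCL5, or RANTES, was at 0.628 to 2.07 CPM in Sep, 0.940 to 2.26 in Susp and 1.03 to 2.99 in Adh. The 3 ranges overlapped almost entirely. The log2 difference was 0.35 (95% interval -0.53 to 1.22) for Susp against Sep and 0.39 (-0.52 to 1.31) for Adh against Sep, intervals wide enough for a 2-fold change. The former was 0.26 without Susp replicate 2.

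**Figure D3:**
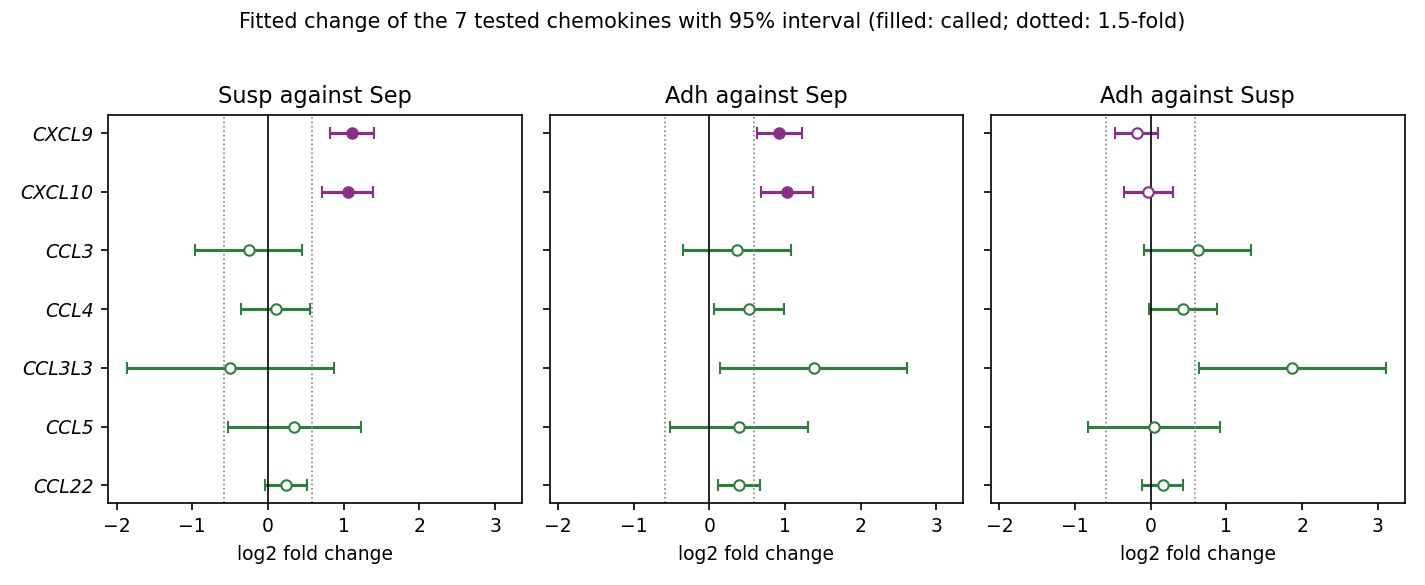
Fitted log2 fold changes of the 7 tested chemokines (points) with their 95% intervals (bars) in the 3 comparisons of REC-1 groups; dotted lines mark a 1.5-fold change and filled points the called genes. CXCL9 and CXCL10 are near a log2 change of 1 in both comparisons with Sep and near 0 between Adh and Susp.

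Counted together, 2 of the 7 tested chemokines, CXCL9 and CXCL10, were called higher in Susp than in Sep, where 0.428% of all tested genes were called higher and 0.731% in either direction. The same 2 were called higher in Adh than in Sep, where 0.583% of all genes were called higher and 2.4% in either direction. For Adh against Susp neither edgeR nor DESeq2 called a chemokine, where 0.778% of all genes were called in either direction and 0.109% higher. Leaving out CCL3L3, which passed the filter through Adh alone, all Susp libraries lay above all Sep libraries for 2 of the other 6 (CXCL9 and CXCL10), as for 5.5% of all tested genes. For Adh against Sep this was so for 3 (CXCL9, CXCL10 and CCL22), against 7.42% of genes, and for Adh against Susp for 0, against 5.61%. The chemokines were picked with these contrasts in view, and nothing is read from the shares.

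The median log2 fold change of the 2 tested CXCL genes was 1.08 in Susp and 0.97 in Adh, both against Sep. That of the 5 tested CCL genes was 0.10 in Susp, with 3 values above 0 and 2 below, and 0.39 in Adh, with all 5 above 0, CCL3L3 included, which passed the filter through Adh alone. Over all tested genes the medians were -0.0059 and -0.0034. The comparisons with Sep share the 4 Sep libraries, so their values are not independent of each other.

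Summed over the 3 CXCL genes, the level was 22.9 ± 3.11 CPM in Sep, 48.5 ± 3.04 in Susp and 45.3 ± 2.20 in Adh (SD, n = 4 each). The sum over the 6 CCL genes was 56.7 ± 7.39 CPM in Sep, 64.5 ± 10.5 in Susp and 76.0 ± 9.05 in Adh, most of it CCL22. The part of the CXCL genes in the total of the 9 was 26.8% to 30.6% in the Sep libraries, 38.9% to 47.1% in Susp and 35.0% to 39.5% in Adh. Every coculture library lay above every Sep library in this part, and Susp and Adh overlapped. As RNA was measured in bulk, more cells making a chemokine and more RNA of it per cell cannot be told apart.

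**Figure D4:**
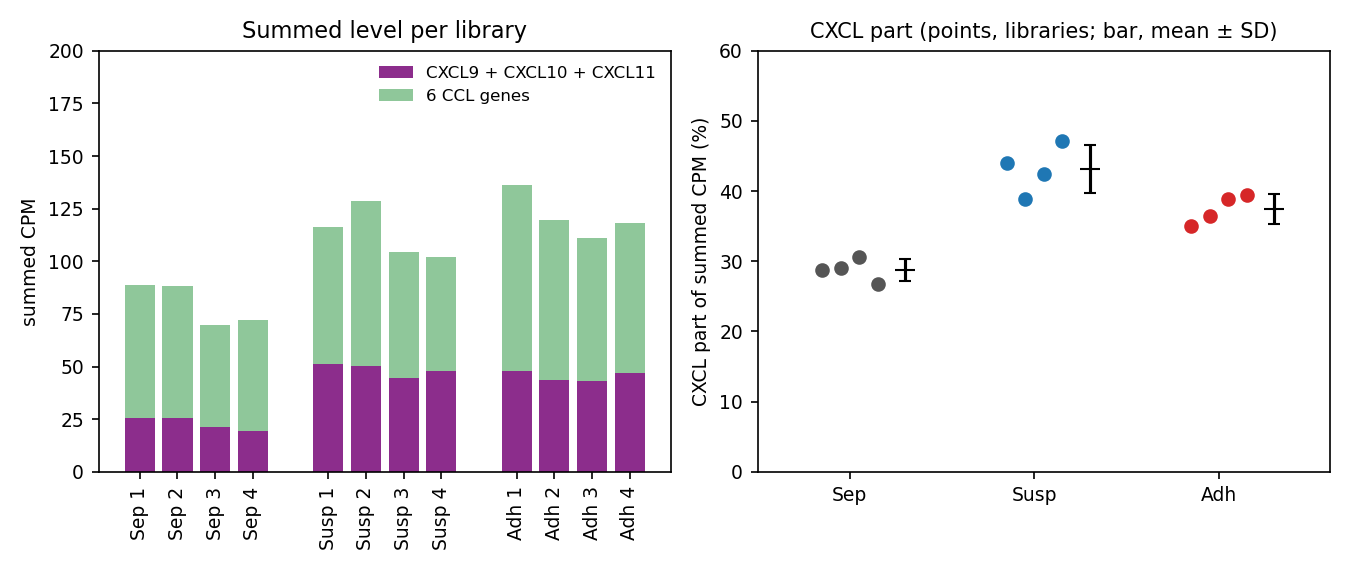
Left, summed CPM of the 3 CXCL and the 6 CCL genes in each REC-1 library, stacked from 0; right, the CXCL part of the sum in percent, with libraries as points and mean ± SD as bars. The CXCL part is at most 30.6% in the Sep libraries and at least 35.0% in the coculture libraries.

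Per length of exons (RPKM), the order of the chemokines in Sep was CCL22, CXCL10, CCL4, CXCL9, CCL3, CCL17, CCL5, CCL3L3 and CXCL11. The lengths of CCL3 and CCL3L3 include exon bases that overlap antisense genes, so the places of these 2 are uncertain. In Sep CCL22, at 14.6 ± 1.96 RPKM, and CXCL10, at 11.3 ± 2.41 RPKM, overlapped, as did CCL4 with CXCL9 and CCL3 with CCL17 and CCL5. In Susp CXCL10 was first at 23.5 ± 3.42 RPKM, and its lowest library, 20.2, was above the highest of CCL22, 19.9. In Adh CXCL10 was again first at 23.0 ± 3.21 RPKM but overlapped with CCL22 at 19.1 ± 2.86 (SD, n = 4 each). CXCL9 and CCL4 overlapped in every group.

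None of the protein-coding genes within 200 kb of a chemokine was called in any of the 3 comparisons by edgeR. Around CXCL9, CXCL10 and CXCL11, the 5 tested neighbours SDAD1, NAAA, NUP54, SCARB2 and USO1 had log2 differences between -0.03 and 0.25 for Susp against Sep and between -0.16 and 0.20 for Adh against Sep, well under those of the chemokines. The 9 tested neighbours of CCL17 and CCL22 lay between -1.02 and 0.42 for Susp against Sep and between -0.49 and 0.42 for Adh against Sep. The lowest in both was PLLP, at a mean of 0.721 CPM over the libraries. On chromosome 17, RDM1 near CCL5 and CCL3 was at -0.56 (SE 0.24) in Susp and -0.23 (SE 0.24) in Adh, both against Sep. CCL4L2 was at -0.02 in Susp and 0.59 in Adh, while AP2B1 and TAF15 near CCL5 lay between -0.12 and 0.18 in both.

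Mouse chemokine RNA of the same kinds was near 0 in the stroma. The mouse counterparts Cxcl9 and Cxcl10 had 0 counts in the 4 libraries of MS-5 cells alone, and in the Adh libraries 0 counts of Cxcl9 and 1 of Cxcl10 in all, among 29495404 to 34615602 mouse counts per library. Mouse Ccl4 and Ccl5 had 0 counts in Adh, Ccl3 had 4 in 1 library, and Ccl17 had 4, 4, 16 and 5 against 2 in each library of MS-5 alone. None of the 8 mouse counterparts reached the filter, so none was tested. In the same Adh libraries, human counts of COL1A1, COL3A1 and PDGFRB were at most 0.00516% of the mouse counts of these stromal genes, whereas POSTN had 47 human counts, 62 in Sep, and 27 mouse counts. Human counts made up 28.2%, 26.0%, 18.3% and 20.2% of Adh replicates 1 to 4.

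Of 56 listed interferon-response genes 39 were tested, and 2 were called in Susp and 2 in Adh against Sep. This was 5.13% of the tested genes of the list in each comparison, against 0.731% and 2.4% of all genes. The median log2 difference was 0.01 for Susp against Sep and -0.05 for Adh against Sep. In Susp 1 was called higher, BST2 (tetherin, which holds budding virus at the membrane), and 1 lower, CIITA, the master regulator of MHC class II genes. In Adh 1 was called higher, MX2, an antiviral GTPase, and again CIITA lower. For Adh against Susp edgeR called 0, with 7 at an unadjusted p under 0.05, and DESeq2 called 1 (LGALS9). At that unadjusted limit were 8 in Susp against Sep and 4 in Adh against Sep.

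Among these genes CIITA fell the most. It went from 39.0 to 64.2 CPM in the Sep libraries to 24.9 to 30.7 CPM in Susp and 24.1 to 29.4 CPM in Adh, with no overlap of either with Sep. The log2 fold change was -0.82 (SE 0.14, edgeR adjusted p = 0.00749) in Susp, -0.77 without replicate 2, and -0.91 (SE 0.15, edgeR adjusted p = 0.00177) in Adh. MX2 rose from 13.7 ± 0.946 CPM in Sep to 21.4 ± 0.926 in Adh (SD, n = 4 each), without overlap and with a log2 difference of 0.65 (SE 0.13; adjusted p = 0.0102 in edgeR). It was not called without Sep replicate 2 (adjusted p = 0.0523). BST2 rose from 32.7 ± 3.79 to 52.5 ± 11.5 CPM in Susp (SD, n = 4 each; log2 difference 0.68, SE 0.15; adjusted p = 0.0294 in edgeR). Of the Susp libraries replicate 2 was at 69.8 and the others at 46.1 to 47.5 CPM. Without that library the log2 fold change was 0.51, under the limit for a call, and BST2 also lost its call without Sep replicate 1, 3 or 4 (adjusted p = 0.0902, 0.108 and 0.0674).

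Interferon RNA itself was at the floor of counting. Of 21 interferon genes, 0 passed the filter, and their counts summed to 0 in every Sep library, to 0 to 2 in a Susp library and to 0 to 8 in an Adh library. IFNA6 had 8 counts in all, in Adh. IFNG had 2 counts in all, in Susp. Of the 18 signalling genes 16 were tested, and edgeR called 0 in Susp, where 0 had an unadjusted p under 0.05 and DESeq2 also called 0. For Adh against Sep both called 1 of 16, 6.25% against 2.4% of all genes, with 3 at an unadjusted p under 0.05. For Adh against Susp both called 0, with 4 at an unadjusted p under 0.05. IRF1, a transcription factor that interferons induce, was at 32.9 ± 4.39 CPM in Sep, 34.3 ± 2.604 in Susp and 33.8 ± 2.57 in Adh (SD, n = 4 each), and its means differed by less than the spread of the libraries.

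IRF9, a DNA-binding partner of STAT2 at the interferon-stimulated response element, was the 1 signalling gene called in Adh, and it was lower. It measured 2.13, 5.44, 4.39 and 3.59 CPM in Sep, 2.92, 1.72, 1.69 and 2.89 in Susp and 1.95, 1.06, 0.642 and 0.385 in Adh. All Adh libraries lay under all Sep libraries, on 3 to 26 counts each. The log2 fold change of Adh against Sep was -1.83 (SE 0.42, edgeR adjusted p = 0.0249), and the call was lost in 7 of 23 alternatives, 6 of them each without 1 library, Sep replicate 2, 3 or 4 or Adh replicate 2, 3 or 4 (adjusted p = 0.0530 to 0.103). STAT2 was not called, at -0.37 (SE 0.10, edgeR adjusted p = 0.0439), since this is under 1.5-fold.

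Of 34 listed genes known to follow BCR and NF-kB signalling, as CCL3 and CCL4 do, 28 were tested. For Susp against Sep edgeR called 1 higher and 1 lower, 7.14% of the list against 0.731% of all genes. The list median was -0.09 on the log2 scale, and 13 had an unadjusted p under 0.05. DUSP5, a phosphatase that acts on ERK, was higher, at 14.6 ± 2.58 CPM in Sep and 24.1 ± 4.76 in Susp (SD, n = 4 each; log2 fold change 0.72, SE 0.15, edgeR adjusted p = 0.0240). The early activation marker CD69 was lower, at 33.0 ± 4.68 and 20.6 ± 1.27 CPM (log2 fold change -0.68, SE 0.13, edgeR adjusted p = 0.0137). Without Susp replicate 2 CD69 was again at -0.68 and called, and DUSP5 was at 0.56 on the log2 scale and not called. The call of DUSP5 was also lost without Sep replicate 2, 3 or 4 or Susp replicate 4 (adjusted p = 0.0530 to 0.113), and CD69 without Sep replicate 1 or Susp replicate 3 or 4 (adjusted p = 0.0556 to 0.0592). DESeq2 called 4 in Susp, these 2 with the orphan nuclear receptor gene NR4A1 (higher) and the cytokine gene TNF (lower), which edgeR did not call at 0.71 and -0.94 on the log2 scale (adjusted p = 0.0815 and 0.0890). For Adh against Sep edgeR called 0 of 28, with a median of 0.06 and 8 at an unadjusted p under 0.05, and DESeq2 called 2 (EGR3 and NR4A3). For Adh against Susp edgeR also called 0, with a median of 0.21 and 9 at an unadjusted p under 0.05. DESeq2 called 1 (TNF, at 0.82 in edgeR). Of all genes DESeq2 called 172 in Susp against Sep, 527 in Adh against Sep and 282 in Adh against Susp. How many of all genes had an unadjusted p under 0.05 was not counted, so nothing is read from the counts at that limit.

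The factor NFKB1 was at 173.6 ± 4.55 CPM in Sep, 154.5 ± 7.90 in Susp and 144.2 ± 2.31 in Adh (SD, n = 4 each), with a log2 difference of -0.27 for Adh against Sep (SE 0.07, edgeR adjusted p = 0.0563, not called). IRF4, which takes part in B cell activation, was at 325.3 ± 9.03, 266.2 ± 45.6 and 310.8 ± 18.6 CPM, and STAT6, which mediates IL-4 signals to CCL17 and CCL22, at 327.2 ± 15.4, 314.5 ± 22.4 and 273.7 ± 33.4 CPM. Neither was called. Of the 12 genes on the IL-4 and CD40 axis edgeR and DESeq2 called 0 in each comparison, with 4, 5 and 4 at an unadjusted p under 0.05 in Susp against Sep, Adh against Sep and Adh against Susp.

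**Figure D5:**
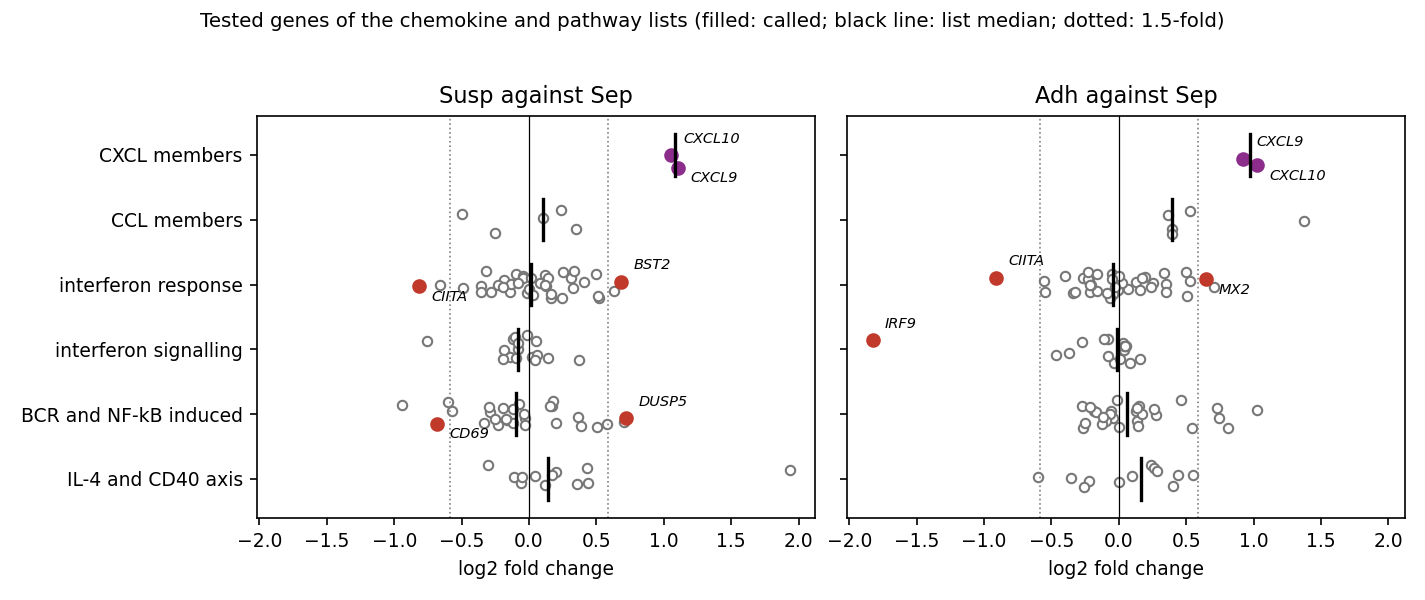
Log2 fold changes against Sep of the tested genes on the chemokine and pathway lists, with Susp on the left and Adh on the right; each point is a gene, filled points are called, black lines are list medians and dotted lines mark 1.5-fold. CXCL9 and CXCL10 lie to the right of every interferon-response gene, the highest of which are BST2 at 0.68 in Susp and IFI44L at 0.70 in Adh.

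Apart from ACKR3, the listed receptors of these chemokines were scarcely transcribed in REC-1. CXCR3 had 0 to 12 counts per library, with 0.365 ± 0.336 CPM in Sep, 0.584 ± 0.171 in Susp and 0.402 ± 0.316 in Adh (SD, n = 4 each). CCR3, CCR4, CCR8 and ACKR1 had 0 counts in all 12 libraries. Of the 11 listed receptors only CCR1, at 0.732 CPM in Sep, 0.500 in Susp and 0.862 in Adh, and ACKR3, at 5.76, 5.28 and 5.30 CPM (means), passed the filter. ACKR3 is a scavenging receptor that takes up CXCL11 and CXCL12. Neither was called by edgeR or DESeq2, and 0 had an unadjusted p under 0.05 in any comparison.

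Other chemokine transcripts added little. Of 37 further chemokine genes found in the table, CCL4L2 and CXCL16 passed the filter. CXCL16, a membrane-bound ligand of CXCR6, was at 5.44, 5.96 and 4.94 CPM (means) in Sep, Susp and Adh and was not called. The 37 summed to between 7.19 and 14.8 CPM per library.

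Over the 12 REC-1 libraries, the genes whose log2 CPM followed CXCL10 most closely were CABLES1 (Pearson's r = 0.978, Spearman's rho = 0.958), HSPA5 (r = 0.949, rho = 0.909) and CD22 (r = 0.934, rho = 0.832). CABLES1 is a cyclin-dependent kinase adaptor, HSPA5 a chaperone of the endoplasmic reticulum and CD22 an inhibitory B cell coreceptor. CABLES1 was at 27.1 ± 3.34 CPM in Sep, 58.0 ± 8.77 in Susp and 54.7 ± 4.68 in Adh (SD, n = 4 each), a step of like size to that of CXCL10, while HSPA5 and CD22 stepped up less, from 549.6 to 633.7 and 624.9 CPM and from 49.7 to 67.2 and 65.3 CPM. CXCL9 itself correlated with CXCL10 at r = 0.823 (rho = 0.469). For CCL4 the closest were CCDC59, HMGN3 and ENTPD1, and for CCL22 RABEPK, EAF2 and ATXN10. These coefficients describe libraries that share groups and sequencing depth and carry no test.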

How the data were processed

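RNA-seq gene counts of 12 REC-1 libraries (Sep, Susp and Adh, 4 each) and, for mouse genes, of the 4 Adh libraries and 4 libraries of MS-5 cells alone were used. The authors assigned reads to species by Xenome, mapped them by STAR 2.5.1b and counted them on genes with featureCounts of Subread 1.5.2 (GRCh38 and GRCm38, per the submitters' processing notes), and the deposited values were whole-number counts for 58051 human and 49671 mouse genes, neither normalized nor filtered. Another 20 columns of the tables were not used.

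Counts were analysed in R 4.3.3 with edgeR 4.0.16 (filterByExpr, TMM, quasi-likelihood test in its earlier form, 1 model of the 3 REC-1 groups and a separate mouse model of 12201 genes). Calls needed a fold change of 1.5 or more and a p, adjusted by Benjamini-Hochberg, no greater than 0.05. CPM used TMM-scaled library sizes, and log2 CPM a prior count of 2. RPKM used the union of exons of GENCODE release 44. Intervals are 95% and come from the quasi-likelihood fit, so they reflect the spread between these libraries. A count of 0 was taken to allow 3 counts, which covers counting error alone. Depth ranged from 7758979 to 21467832 human and from 10097555 to 34615602 mouse counts, which limits genes under about 1 CPM. Alternatives were DESeq2 1.42.0, the replicate number as a block, other filters and scalings, thinning, removal of mitochondrial genes, CCL3 and CCL3L3 summed, a fit of the 2 compared groups alone and each library left out; halved counts and the block without Susp replicate 2 were chosen after seeing the data. In simulated counts with 2-fold changes, the fit recovered 191 of 200 altered genes beside 8 wrong calls among 12861 genes for Adh against Susp. It recovered 197 of 200 beside 16 wrong calls among 12201 genes for the mouse comparison. Only well-counted genes were altered, all genes had the same fixed spread, and the excess of even counts was not simulated. CCL3, CCL3L3 and CCL5 lay below the levels at which genes were altered. No comparison with Sep was simulated, so the recovery does not carry over to these cases.

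The chemokines and the lists were chosen with earlier results of these data known. The genes named are the 9 chemokines, their receptors, 6 regulators (STAT2, IRF1, IRF9, NFKB1, STAT6 and IRF4), every called gene of the lists, the mouse counterparts, the tested protein-coding neighbours within 200 kb and the 3 genes most correlated with CXCL10, CCL4 and CCL22 each. CCL4L2, CXCL16, IFI44L, LGALS9, EGR3, NR4A3, NR4A1, TNF, IFNA6, IFNG and the marker genes were named after their values were seen. Some genes of the lists are counted but not reported by name here.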

Additional observations from a re-analysis of the deposited data

Results flagged for a closer look

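In 9 of the 104 groups of 4 libraries that were checked, the highest or lowest library stood apart from the other 3 by more than Dixon's 95% critical value. For normally distributed values chance gives about 1 group in 20. A group with 3 libraries at 0 and 1 above 0 is always flagged, as both groups of CXCL11 and that of CCRL2 below were. The 9 flags are therefore not set against that rate. No cause was tested for any of them. CCL3 was at 2.70 CPM in Susp replicate 2, against 1.41 to 1.498 CPM in the other Susp libraries, and at 1.16 CPM in Adh replicate 3, against 3.01 to 3.34 CPM in the others. CXCL11 was at 0.0967 CPM in Susp replicate 3 and at 0.150 CPM in Adh replicate 1, on 2 counts each, with 0 in the other libraries of the group. The receptor gene CCRL2 was likewise at 0.150 CPM in Adh replicate 1, on 2 counts, with 0 in the others.

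Among genes of the interferon and NF-kB lists, BST2 was at 69.8 CPM in Susp replicate 2 (46.1 to 47.5 in the others), IRF1 at 39.5 CPM in Sep replicate 4 (30.3 to 31.2) and DUSP5 at 18.4 CPM in Sep replicate 1 (12.9 to 13.6). CCDC59, the gene most correlated with CCL4, was at 65.6 CPM in Susp replicate 2 (47.8 to 50.4 in the others). Susp replicate 2 was thus the library that stood apart for CCL3, BST2 and CCDC59.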

How the results depend on the processing

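CXCL9 and CXCL10 were called higher in Susp and in Adh than in Sep in each of the 24 alternatives, with log2 fold changes of 1.05 to 1.17 and 0.95 to 1.18 in Susp and of 0.85 to 1.01 and 0.91 to 1.15 in Adh. The alternatives reuse the same libraries, and the one without a fold change minimum could not lose a call. Both genes were chosen with these comparisons known, so the calls describe the processing and add no separate evidence. Without 1 library at a time both comparisons with Sep had 2 chemokines called and Adh against Susp 0. The direction of CXCL10 between Adh and Susp turned in 4 alternatives, that of CCL5 in 5, and that of CCL4 between Susp and Sep in 3. Under 1 CPM counting error limits CCL3L3, CCL17 and CXCL11. Causes of the changes below were not tested.

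The replicate numbers were not taken as pairs in the main fit, since the labels do not say what they mark. Same-numbered libraries share a sample code, and the paper counts 4 independent experiments, so the numbers may mark shared experiments. Deviations of same-numbered libraries correlated above 0.1 for 3 of 4 numbers in Adh and Sep. This held for 2 of 4 in Adh and MS-5 and 1 of 4 in each other comparison. For replicate 1 the correlation was 0.31 to 0.32 between REC-1 groups. Pairing was thus neither shown nor excluded. With the replicate number as a block, all genes called were 175 in Susp against Sep (94 without it). They were 384 in Adh against Sep (309 without it) and 281 in Adh against Susp (100 without it). With this block, BCR and NF-kB genes called were 4 and 1 in Susp and Adh against Sep, and 1 interferon-response gene was called in Adh against Susp. With the block and without Susp replicate 2, chosen after seeing the data, all genes called were 144 (Susp against Sep), 680 (Adh against Sep, 309 before) and 419 (Adh against Susp), and in Adh against Susp 2 chemokines were called, CCL4 (log2 fold change 0.61) and CCL3L3 (2.41), with 1 interferon-response, 1 interferon-signalling and 1 BCR and NF-kB gene. BCR and NF-kB genes called in Adh against Sep were then 2. CCL3L3 passed the filter through Adh alone, and the chemokines were picked with these contrasts in view, so nothing is read from the 2 chemokine calls.

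With DESeq2 all genes called were 172, 527 and 282 in Susp against Sep, Adh against Sep and Adh against Susp, and without the low-count filter 217, 503 and 341. BCR and NF-kB genes called were 4, 2 and 1 with DESeq2, and 4 and 1 in the comparisons with Sep without the filter. In Adh against Susp 1 interferon-response gene was called under either. In the fit of the 2 compared groups alone, 1 interferon-response and 1 BCR and NF-kB gene were called in Susp against Sep, beside 77 of all genes. In Adh against Sep 1 BCR and NF-kB gene was called in that fit, beside 379 of all genes. Without a fold change minimum 4 interferon-response and 2 signalling genes were called in Adh against Sep, beside 438 of all genes. With at least 10 counts in every library or after thinning 0 signalling genes were called there, beside 281 and 294 of all genes.

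Without 1 library at a time, all genes called ranged from 64 to 135 (Susp against Sep), 143 (without Sep replicate 2) to 519 (without Susp replicate 2; Adh against Sep) and 51 to 165 (Adh against Susp). Interferon-response genes called ranged from 1 to 2, 1 to 2 and 0 to 1, signalling genes from 0 to 2 in Adh against Sep and 0 in the other comparisons, and BCR and NF-kB genes from 1 to 4, 0 to 2 and 0 in all.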
